A study of Mus musculus with 6 samples.

Results

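The fibulins are a small family of secreted glycoproteins of the extracellular matrix, and 7 genes were taken as its members by gene name: Fbln1, Fbln2, Fbln5, Fbln7, Efemp1, Efemp2 and Hmcn1. The tables hold 55291 genes, and all 7 members were among the 19971 that passed the filter on low counts. Shaved dorsal skin was taken from 3 mice of the tight skin strain (TSK) and from 3 wild-type mice (WT), and the RNA of each mouse was sequenced as 1 library. TSK mice carry an internal duplication in 1 copy of Fbn1, which encodes the microfibril protein fibrillin 1, and the mutation was kept by backcrossing to C57BL/6. WT mice were littermates without it, and the strain of both groups is labelled C57BL/6. The labels give both groups as females of 6 to 8 weeks, whereas the study's methods describe males of 8 weeks, so the sex of the animals is unsettled between the sources. The question put to these libraries was how the skin of the mutant mice differs from that of WT mice, here for the fibulins.

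Fibulins are built from repeated calcium-binding EGF-like modules followed by a fibulin-type module at the C terminus. The short fibulins encoded by Efemp1, Fbln5 and Efemp2 bind tropoelastin and help to place elastin and its crosslinking enzymes on fibrillin microfibrils. Loss of Fbln5 or Efemp2 leaves mice with defective elastic fibres. The long fibulins, encoded by Fbln1 and Fbln2, lie in basement membranes and along microfibrils, where they bind nidogens, fibronectin and proteoglycans such as versican. Fbln7 encodes a cell adhesion protein, and Hmcn1 encodes hemicentin 1, a very large protein of tissue junctions. In skin, fibulins are made largely by fibroblasts of the dermis.

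Of the 7 members, 3 were higher in TSK skin past an adjusted p of 0.05, where 2.71% of all genes tested were. They are Efemp1, Fbln5 and Efemp2, and Efemp1 differed most, with a mean 5.54 times that of WT. The calls of Fbln5 and Efemp2 were each lost on leaving out certain single mice (any of 3 for Fbln5, any of 4 for Efemp2), and Fbln1 and Fbln2 passed as well under 6 alternatives. No test set short against long fibulins. The promoters of the 3 genes called, from 250 bases before to 50 bases after the RefSeq start, are given for reference. Capitals mark matches on either strand to the letters of an AP-1 site (TGANTCA) or a GC box (GGGCGG, or CCGCCC as its reverse complement). Each runs 5′ to 3′ along the gene's own strand in GRCm38.p6.
Efemp1, chr11:28852955-28853254, plus strand: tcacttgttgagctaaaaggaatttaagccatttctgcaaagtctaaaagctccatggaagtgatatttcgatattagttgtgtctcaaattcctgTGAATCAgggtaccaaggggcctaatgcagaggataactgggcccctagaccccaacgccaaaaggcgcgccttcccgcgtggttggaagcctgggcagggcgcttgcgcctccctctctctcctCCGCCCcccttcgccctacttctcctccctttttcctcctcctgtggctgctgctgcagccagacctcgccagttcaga
Fbln5, chr12:101819070-101819369, minus strand: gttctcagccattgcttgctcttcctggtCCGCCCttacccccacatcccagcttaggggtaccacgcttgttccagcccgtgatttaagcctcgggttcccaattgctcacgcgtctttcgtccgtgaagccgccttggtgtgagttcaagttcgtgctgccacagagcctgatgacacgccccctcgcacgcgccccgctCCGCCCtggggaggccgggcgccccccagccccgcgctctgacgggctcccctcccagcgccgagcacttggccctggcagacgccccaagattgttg
Efemp2, chr19:5473696-5473995, plus strand: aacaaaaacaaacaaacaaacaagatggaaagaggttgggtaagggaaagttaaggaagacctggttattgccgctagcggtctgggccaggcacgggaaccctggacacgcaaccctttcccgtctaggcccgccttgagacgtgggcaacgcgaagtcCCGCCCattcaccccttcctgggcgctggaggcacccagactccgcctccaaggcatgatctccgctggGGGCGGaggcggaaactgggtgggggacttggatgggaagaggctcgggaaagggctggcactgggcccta

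GC content was 54.3% in the Efemp1 window, 65.7% in the Fbln5 window and 60.3% in the Efemp2 window, against a median of 52.7% over 32851 RefSeq promoters of the same length. The Efemp1 window held 1 AP-1 match, a sequence found in 7.81% of all promoters, and 1 GC box, found in 35.7%. The Fbln5 and Efemp2 windows shown held 2 GC boxes each and no AP-1 match. These genes have other starts whose windows differ. The other Fbln5 window held no GC box at a GC content of 48.7%, and those of Efemp2, which overlap each other, held 5 and 7 at 76% and 78.3%. No window of any member held the TATA box letters (TATAAA), which 13.6% of all promoters hold. The 7 members had 11 windows in all, since some genes have several starts. A match of letters is a description and not a binding site.

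Sequencing depth was alike in all libraries, with totals of 17561453 to 19219814 counts, and the totals of the groups overlapped. Their makeup was not alike. TMM factors, which scale a library for its composition, ran from 0.823 to 1.03 over the WT libraries and from 1.06 to 1.13 over the TSK libraries. Genes of adult skeletal muscle took 14.6% to 21.0% of counts in WT and 12.7% to 14.3% in TSK. Markers of keratinocytes and fibroblasts were detected, as the label of skin requires, and no marker of the 9 cell type lists used here was at 0 in all libraries. The mutated gene, Fbn1, was measured in CPM (a count scaled to the library total). It was at 267, 289 and 262 in the WT mice and at 1538, 2284 and 2007 in the TSK mice, listed by mouse number. Its log2 fold change was 2.54 (SE 0.22, adjusted p = 0.00327). Reads from the duplicated exons count toward Fbn1, which also shares 2442 exon bases with the antisense gene Gm9913.

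Of the 7 fibulins, 3 rose and none fell past an adjusted p of 0.05 by edgeR's quasi-likelihood test (TMM, Benjamini-Hochberg over all genes tested). Over all genes the same test called 0.681% as lower in TSK. The median log2 fold change was 1.01 over the members and -0.03 over all genes. Log2 fold changes are TSK minus WT throughout. At the study's thresholds, a fold above 2.5 and an adjusted p below 0.01, Efemp1 alone of the 7 remained, where 0.255% of all genes were called as higher. DESeq2, the tool of the study, called Fbln1 and Fbln2 as well, 5 of 7 at 0.05 (5.2% of all genes higher), and called Efemp1, Fbln5 and Fbln1, 3 of 7, at the study's thresholds (1.42% of all genes higher). Nothing shows that same-numbered mice were paired, and p-values measure the spread between these 6 mice. In whole skin, fewer cells of a type and less RNA per cell cannot be told apart.

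Efemp1 encodes EFEMP1, also called fibulin 3, a short fibulin. It lies on chr11:28853204-28926743 (mm10, plus strand). The WT mice, in the order of their numbers as for every gene here, had 12.8, 8.41 and 8.96 CPM, and the TSK mice had 39.8, 64.2 and 63.4 CPM. The groups were far apart, and the lowest TSK library was 3.10 times the highest WT library. The means were 10.1 ± 2.40 CPM in WT and 55.8 ± 13.9 CPM in TSK (SD, n = 3). The log2 fold change was 2.20 (SE 0.19, adjusted p = 0.00327), the 10th smallest p of all genes tested. Efemp1 passed 0.05 under every alternative tried, with a log2 fold change from 2.09 to 2.47. The study's thresholds were not met without WT 2, WT 3 or TSK 3.

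Fbln5, on chr12:101746565-101819055 (minus strand), encodes fibulin 5, which tethers elastin to microfibrils and binds cell-surface integrins. It was at 3.87, 5.32 and 4.89 CPM in WT and at 11.1, 18.9 and 17.2 CPM in TSK. All TSK libraries lay above all WT libraries, with TSK 1 the lowest of the mutants, as it was for Efemp1. The means were 4.70 ± 0.745 and 15.7 ± 4.13 CPM (SD, n = 3), a ratio of 3.35. The log2 fold change was 1.44 (SE 0.25, adjusted p = 0.0234). The call was lost without WT 3 (adjusted p = 0.0916), TSK 2 (0.0568) or TSK 3 (0.0629), with the direction kept.

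Efemp2, on chr19:5473954-5482517 (plus strand), encodes fibulin 4, which brings lysyl oxidase to the elastic fibre. It was at 6.39, 6.18 and 6.94 CPM in WT and at 12.6, 14.1 and 18.2 CPM in TSK. The WT libraries were the most uniform of any fibulin, and the groups did not overlap. The means were 6.50 ± 0.395 and 14.95 ± 2.89 CPM (SD, n = 3), a ratio of 2.30, and the log2 fold change was 0.92 (SE 0.18, adjusted p = 0.0304). The call was lost without WT 2 (adjusted p = 0.0766), WT 3 (0.0996), TSK 2 (0.0584) or TSK 3 (0.0692). Efemp2 shares 173 exon bases with Mus81 on the opposite strand, and the strand setting of the authors' counting is not given in the sources used here.

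**Figure D1:**
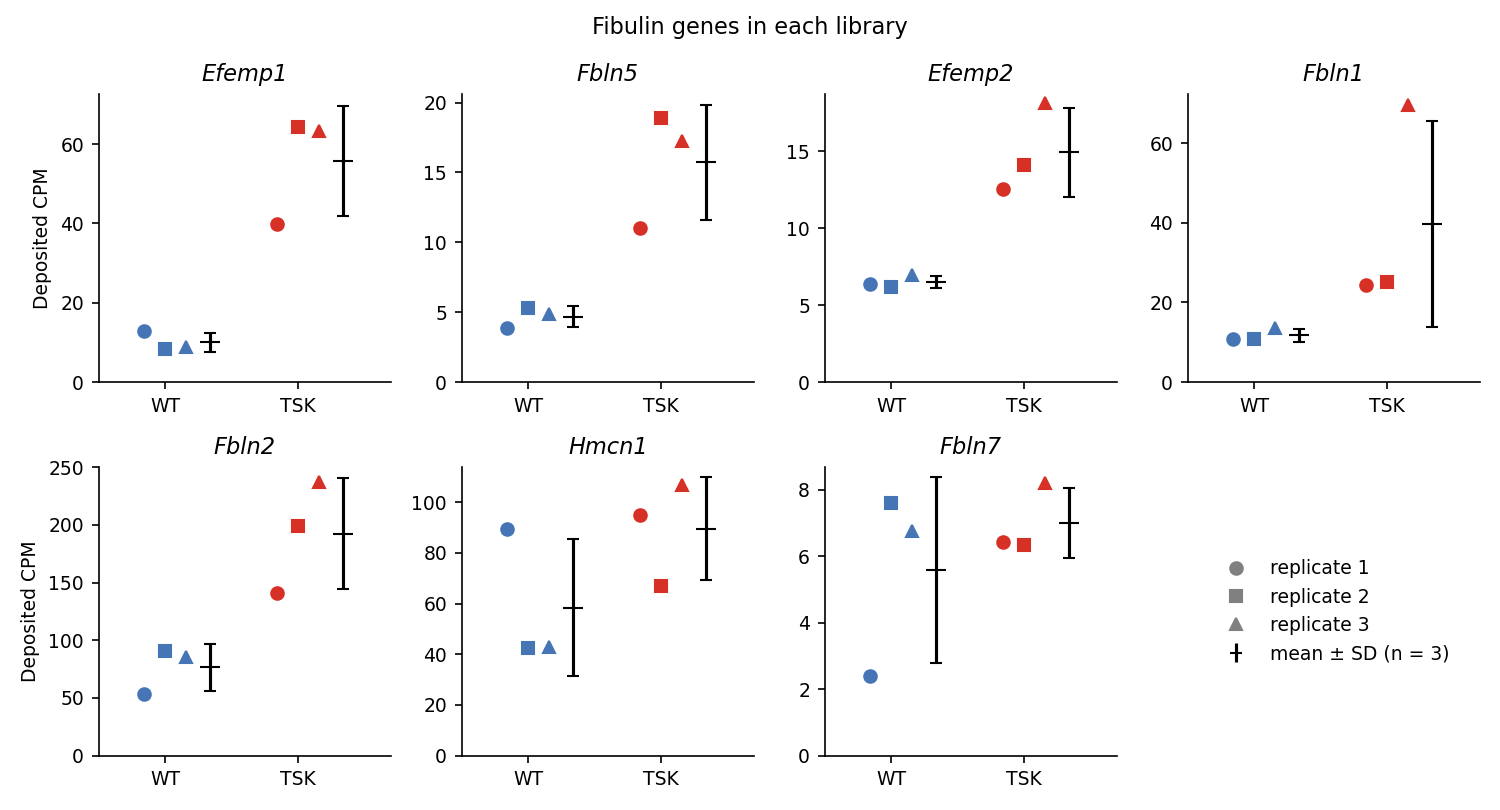
Deposited level of each fibulin gene (CPM, linear axis from 0) in each library, with blue points for WT, red points for TSK, a symbol for each replicate and black bars for mean ± SD (n = 3). The groups do not overlap for Efemp1, Fbln5, Efemp2, Fbln1 and Fbln2 and overlap for Hmcn1 and Fbln7, and TSK 3 stands alone at 69.5 CPM for Fbln1.

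The long fibulins did not pass 0.05 by edgeR. Fbln1, on chr15:85205949-85286535 (plus strand), was at 10.9, 10.9 and 13.6 CPM in WT and at 24.4, 25.1 and 69.5 CPM in TSK. The groups did not overlap, but TSK 3 was far above the other mutants. The means were 11.8 ± 1.60 and 39.7 ± 25.8 CPM (SD, n = 3), and the log2 fold change was 1.45 (SE 0.39, adjusted p = 0.0815). It was 0.80 without TSK 3 (adjusted p = 0.0696). DESeq2 gave nearly the same log2 fold change, 1.44, with an adjusted p of 0.00226.

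Fbln2, on chr6:91212455-91272540 (plus strand), was at 53.1, 91.0 and 85.8 CPM in WT and at 141, 199 and 237 CPM in TSK. Every TSK library lay above every WT library, and WT 1 was the lowest of all. The means were 76.6 ± 20.5 and 192 ± 48.3 CPM (SD, n = 3), a ratio of 2.51. The log2 fold change was 1.01 (SE 0.28), with an adjusted p of 0.0940 by edgeR and 0.00773 by DESeq2.

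With Fbln1 and Fbln2, 5 of the 7 fibulins had deposited levels that did not overlap between the groups, all higher in TSK. The same held on the TMM scale. Of all genes tested, 29.1% did not overlap with TSK higher on the deposited scale and 14.1% on the TMM scale. Without TMM the median log2 fold change over all genes was 0.25, and edgeR with library size only called the same 5 members, where 8.44% of all genes were called as higher. So did limma on deposited CPM, where 8.87% of all genes (pseudocount 1) and 8.82% (pseudocount 0.1) were called as higher, and edgeR with no low-count filter, where 2.99% were.

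Hmcn1, on chr1:150562524-150993435 (minus strand), was at 89.5, 42.7 and 42.9 CPM in WT and at 95.1, 67.0 and 107 CPM in TSK. The groups overlapped because WT 1 was high. The log2 fold change was 0.38 (SE 0.26, adjusted p = 0.459), with values from 0.23 without WT 3 (adjusted p = 0.786) to 0.72 without WT 1 (adjusted p = 0.0785). An antisense gene, Gm20631, shares 399 of its exon bases. Hmcn2, which encodes the other hemicentin and is no member, was at 123, 441 and 288 CPM in WT and at 335, 346 and 401 CPM in TSK, with a log2 fold change of 0.00 (SE 0.43, adjusted p = 0.999).

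Fbln7, on chr2:128862981-128897034 (plus strand), held the lowest single-library count of any fibulin, in WT 1. Its WT mean was 5.59 CPM, above the 4.70 CPM of Fbln5. Fbln7 was at 2.40, 7.61 and 6.76 CPM in WT and at 6.43, 6.35 and 8.22 CPM in TSK. WT 1 was low and the other 5 libraries lay close together. Its count in WT 1 was 42.1, with a 95% exact Poisson interval of 30.3 to 56.8 that covers counting error only and does not reach the 102 at the lower bound of WT 3. The log2 fold change was -0.01 (SE 0.41, adjusted p = 0.996), and its sign turned with the scaling. Fbln7 is the member on the chromosome of Fbn1, 3.36 Mb from its end. Of 128 genes tested within 5 Mb of Fbn1, 2 passed 0.05 with both directions counted, Duox1 and Stard9, which were named after their values were seen. Over all genes tested, 2.71% passed as higher and 0.681% as lower. The median log2 fold change within 5 Mb was -0.04.

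**Figure D2:**
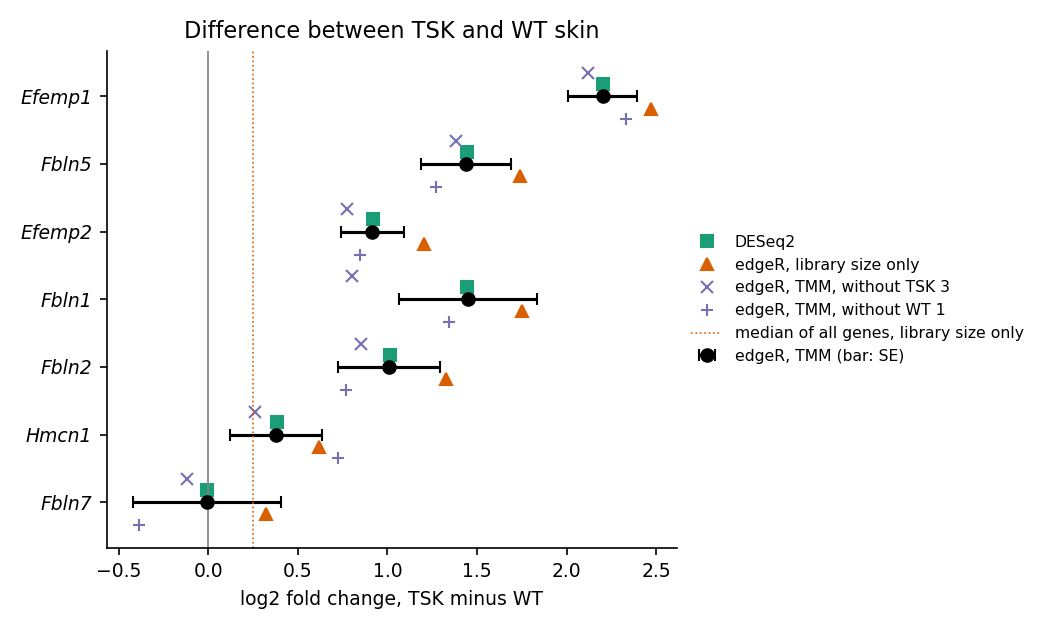
Log2 fold change (TSK minus WT) of each fibulin by edgeR with TMM (black, bar: SE), by DESeq2, by edgeR with library size only, and without TSK 3 or WT 1; the dotted line is the median of all genes with library size only, 0.25. Efemp1 stays between 2.12 and 2.47 in the settings drawn, Fbln1 falls to 0.80 without TSK 3, and Fbln7 lies on both sides of 0.

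Levels of different genes were set side by side as TMM CPM per kilobase of exon. In WT skin Fbln2 was the most abundant fibulin at 13.6 ± 4.83, followed by Efemp1 at 5.38 ± 0.663, Fbln1 at 3.00 ± 0.548, Hmcn1 at 2.95 ± 1.02, Fbln7 at 1.99 ± 1.12, Efemp2 at 1.90 ± 0.223 and Fbln5 at 0.762 ± 0.198 (SD, n = 3). The ranges of Fbln1 and Hmcn1, of Hmcn1 and Fbln7, and of Fbln7 and Efemp2 overlapped, so these neighbours have no settled order. In TSK skin Fbln2 was at 27.3 ± 6.12 and Efemp1 at 24.8 ± 5.54, and their ranges overlapped, whereas in WT they did not. Fbln1 followed at 8.18 ± 5.14, Hmcn1 at 3.85 ± 0.879, Efemp2 at 3.58 ± 0.602, Fbln5 at 2.06 ± 0.492 and Fbln7 at 1.97 ± 0.258, with overlap between Hmcn1 and Efemp2 and between Fbln5 and Fbln7. The order below Efemp1 and the gap between Fbln2 and Efemp1 depend on the length used. In TSK, Fbln2 was at 36.4 ± 8.14 with the length of 1 transcript, and Efemp1 stayed at 24.8 ± 5.54 (SD, n = 3). With the length of 1 transcript per gene, Fbln5 is divided by 2371 bases in place of 6911 and Efemp2 by 1781 in place of 3788, which put Efemp2 at 4.04 in WT, below Fbln2 and Efemp1 only, and Fbln5 at 6.00 in TSK, above Hmcn1 at 4.55.

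The summed family level per kilobase came to 23.8, 33.7 and 31.2 in the WT mice and to 55.3, 72.0 and 88.0 in the TSK mice, and the TSK mean was 2.43 times the WT mean. Efemp1 took 18.9% ± 6.05 of that sum in WT and 34.7% ± 4.15 in TSK (SD, n = 3), with no overlap between the groups. Fbln2 took 44.9% ± 9.30 and 38.1% ± 0.786, and its groups overlapped because WT 1 was at 34.3%. Efemp2, although higher in TSK, took a smaller share there, 5.05% ± 0.522 against 6.48% ± 0.530, also with no overlap. Shares are tied to each other, since they sum to 100% in a library, and were not tested. They are defined for the members only, so no share of all genes stands beside them. With the length of 1 transcript the share of Efemp1 was 14.5% in WT and 27.3% in TSK, and that of Efemp2 was 10.5% and 8.46%.

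**Figure D3:**
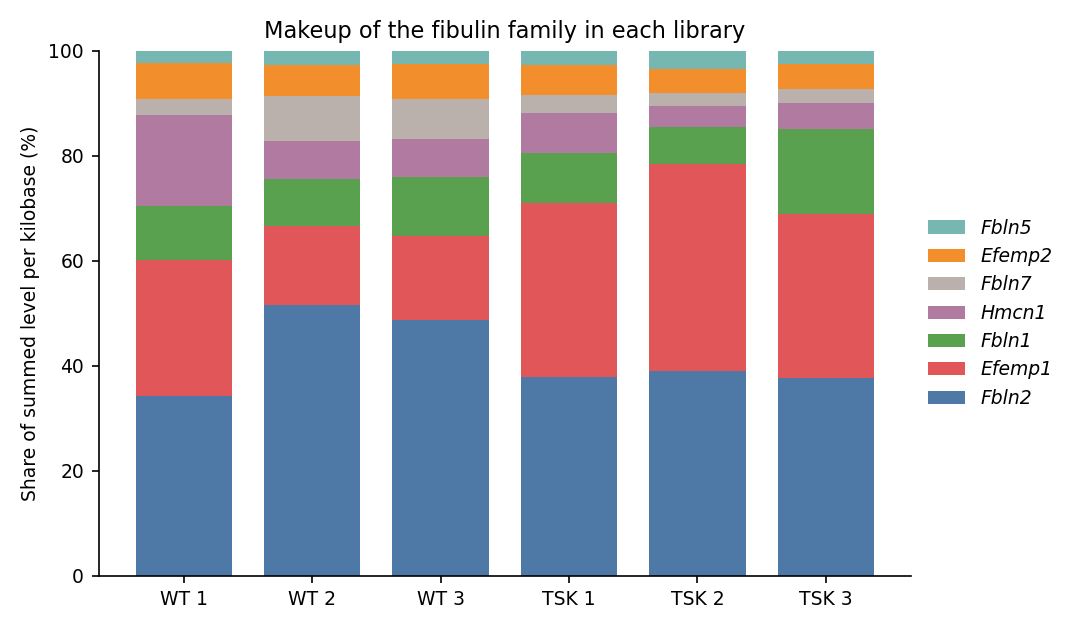
Share (%) of each fibulin in the summed family level per kilobase (TMM CPM per kilobase of exon), as 1 stacked bar per library. The band of Efemp1 is wider in the 3 TSK libraries (31.4% to 39.3%) than in the 3 WT libraries (14.9% to 25.9%), and the band of Hmcn1 is widest in WT 1 at 17.4%.

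Markers of fibroblasts, the main source of fibulins in dermis, moved with the genotype. The 10 fibroblast markers took 0.643% to 0.975% of counts in WT and 2.06% to 4.76% in TSK, where TSK 3 was highest. The 3 collagens among them made up 96.1% to 98.3% of that sum. The other 7 markers took 0.0250% to 0.0339% in WT and 0.0479% to 0.0818% in TSK, a ratio of means of 2.15 against 3.60 with the collagens. Of the 10, 2 were higher past 0.05 by edgeR and 7 by DESeq2, none was lower by either, and their median log2 fold change was 0.88. Their mean log2 CPM was 0.94 higher in TSK with no overlap between the groups (exact permutation test, two-sided, p = 0.1, the smallest that 3 mice against 3 can give).

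Each fibulin was therefore also set against the mean log2 CPM of these markers in the same library. Efemp1 lay 1.23 higher on the log2 scale in TSK relative to the markers, and Fbln5 lay 0.48 higher, both with no overlap between the groups (exact permutation p = 0.1, and 0.35 adjusted over the 7 members). Differences relative to the markers were 0.35 for Fbln1 (exact p = 0.4), 0.11 for Fbln2 (0.5), -0.04 for Efemp2 (0.9), -0.54 for Hmcn1 (0.5) and -0.75 for Fbln7 (0.3). Without collagens among the markers, the differences were 1.46 for Efemp1, 0.71 for Fbln5, 0.58 for Fbln1, 0.34 for Fbln2, 0.19 for Efemp2, -0.31 for Hmcn1 and -0.52 for Fbln7. With those markers the groups of Fbln2 did not overlap either (exact p = 0.1), and the sign for Efemp2 turned. The share of all genes without overlap relative to the markers, with or without collagens, was not counted. Without TSK 3 the difference for Fbln1 was 0.086, without TSK 2 that for Fbln5 was 0.27, and without WT 1 those for Fbln2, Hmcn1 and Fbln7 were -0.0078, -0.061 and -1.14. The part of fibroblast RNA in the level of any fibulin was not tested beyond these ratios.

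**Figure D4:**
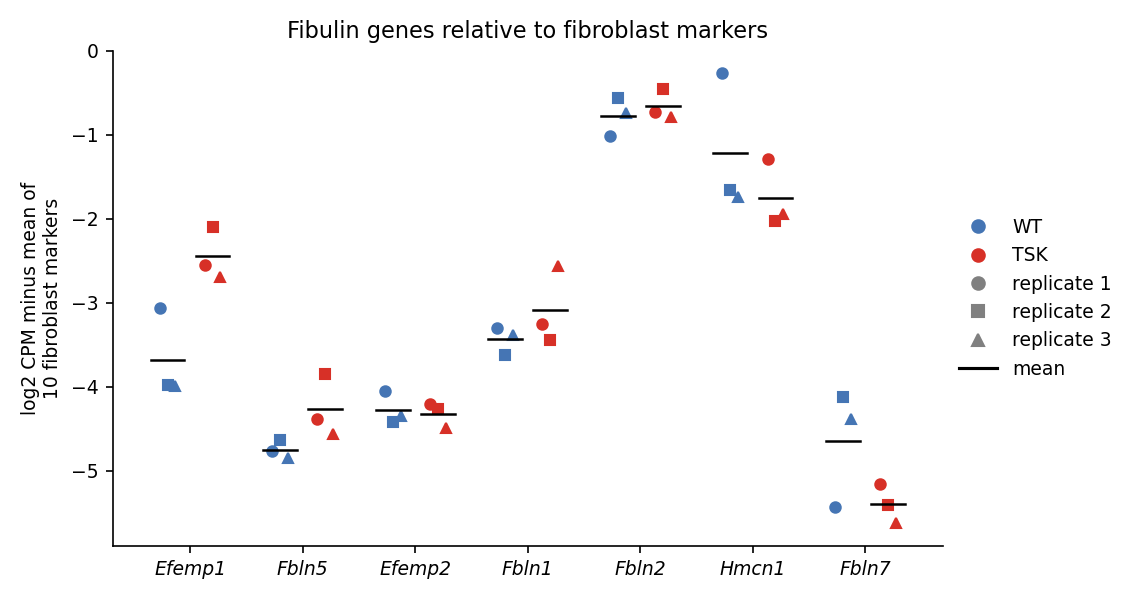
Log2 CPM of each fibulin minus the mean log2 CPM of 10 fibroblast markers in the same library, with blue for WT, red for TSK, a symbol for each replicate and a line at each mean. The TSK points lie above the WT points without overlap for Efemp1 (means 1.23 apart) and Fbln5 (0.48 apart), and overlap for the other 5 genes. The share of all genes without overlap on this scale was not counted.

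Fibulins act on a scaffold of elastin and microfibrils. Of 18 elastic fibre genes, all tested, 7 rose and 1 fell past 0.05, and the median of their log2 fold changes was 0.71 (0.45 without TSK 3). DESeq2 called 9 as higher and 1 as lower. Fbn1 is among them. Mfap5, a microfibril glycoprotein, rose from 11.8 ± 1.27 to 89.1 ± 23.0 CPM (log2 fold change 2.61, adjusted p = 0.00327). Emilin2, of the elastin interface, rose by 2.23 (adjusted p = 0.00606), and Mfap2, another microfibril glycoprotein, by 1.94 (0.0107) on the log2 scale. Eln, which encodes the tropoelastin that short fibulins bind, rose from 74.4 ± 18.8 to 281 ± 57.1 CPM (log2 fold change 1.60, adjusted p = 0.0202). Fbn2, the fibrillin of developing tissue, rose by 1.35 (adjusted p = 0.0359).

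Among the crosslinking enzymes that short fibulins bind, Loxl1, a partner of fibulin 5, rose by 1.33 on the log2 scale (adjusted p = 0.0304), and Lox, a partner of fibulin 4, had a log2 fold change of 0.62 (SE 0.28, adjusted p = 0.264). The difference between these enzymes was not tested. Tgm2, a transglutaminase, was the gene of this list that fell, from 290 ± 18.4 to 189 ± 29.7 CPM (log2 fold change -0.89, adjusted p = 0.0291). Loxl1, Lox and Tgm2 were named after their values were seen.

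Of 16 genes for proteins known to bind or cleave fibulins, 15 were tested and 5 rose, none fell, and the median log2 fold change was 0.65. DESeq2 called 8 as higher. Ccn3, a matricellular protein that binds fibulin 1, rose from 1.72 ± 0.334 to 41.6 ± 8.84 CPM (log2 fold change 4.33, adjusted p = 0.000175). Fn1, which encodes fibronectin, rose by 1.76 (adjusted p = 0.0148), and Nid1, which encodes the nidogen 1 of basement membranes, by 1.46 (0.0447). Sod3, an extracellular superoxide dismutase anchored through fibulin 5, rose by 1.61 (adjusted p = 0.0171). Itgb3, an integrin subunit, rose by 1.12 (adjusted p = 0.0171). The lists were written with earlier results of these libraries known, so their counts are a description beside the 2.71% of all genes called as higher.

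**Figure D5:**
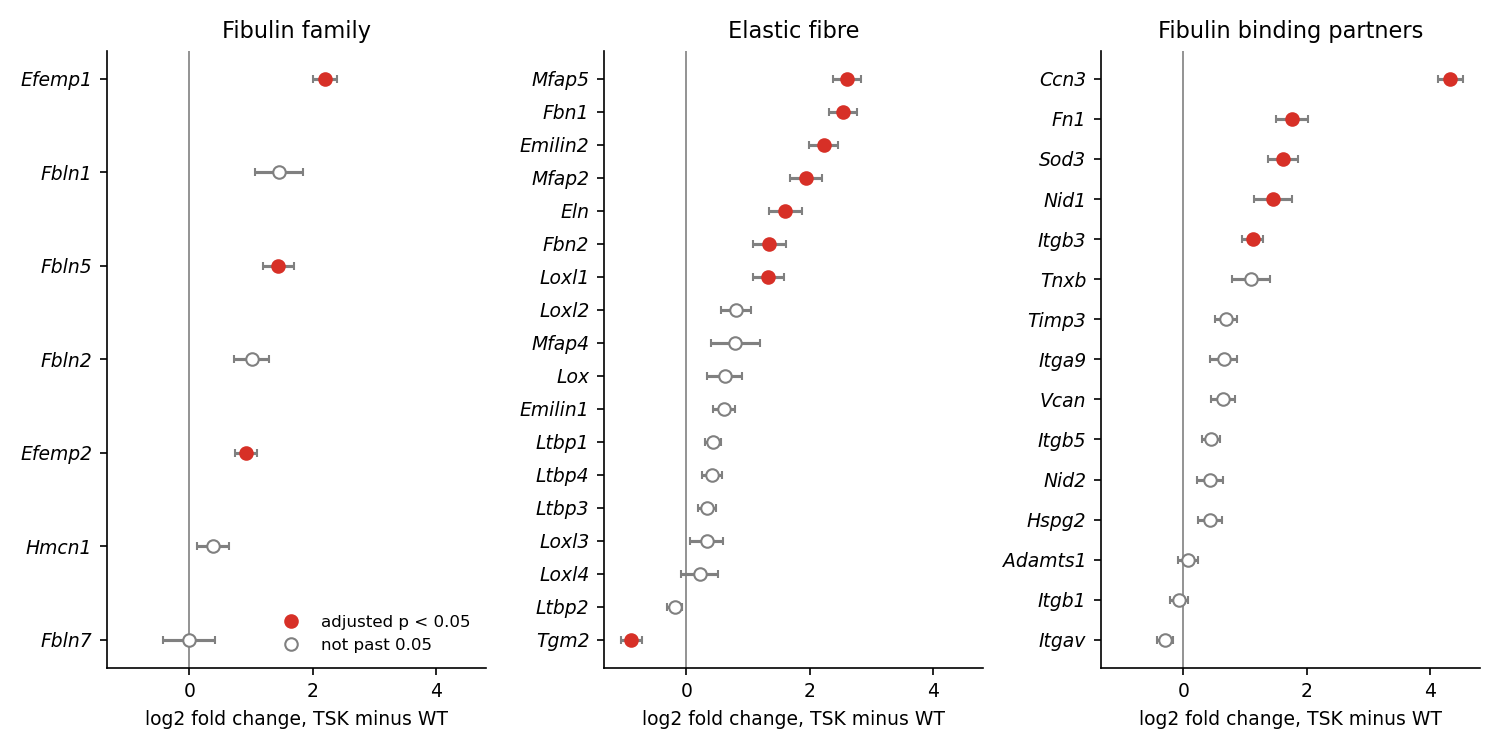
Log2 fold change (TSK minus WT, edgeR with TMM, bar: SE) of the fibulins, of 18 elastic fibre genes and of 15 tested fibulin binding partners, with filled red points for an adjusted p below 0.05. Filled points are 3 of 7, 8 of 18 and 5 of 15, all to the right of 0 except Tgm2, and Ccn3 lies farthest right at 4.33.

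Markers of other cell types were counted in the same way, first by edgeR and then by DESeq2, which called 5.2% of all genes as higher and 1.87% as lower. Past 0.05 and higher in TSK were 2 of 8 endothelial markers by edgeR and 3 by DESeq2 (median log2 fold change 0.72), 1 and 4 of 8 smooth muscle and pericyte markers (0.58), and 1 and 1 of 6 Schwann cell markers (0.62, and 1.00 without WT 1). Adipocyte markers gave 2 and 5 of 7 (2.88, and 1.52 without TSK 2), macrophage markers 0 and 3 of 7 (0.98, and 0.37 without TSK 3) and differentiated keratinocyte markers 2 and 2 of 7 (0.51, and 0.32 without TSK 1). None of 6 basal keratinocyte markers passed by either tool (-0.35, with -0.15 without WT 1 and -0.58 without TSK 1). Of 10 adult skeletal muscle markers (-0.73) none passed by edgeR, whereas by DESeq2 6 were lower and 1 higher. Their part in the levels of the fibulins was not tested.

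The genes whose log2 TMM CPM followed each fibulin most closely over the 6 libraries were found among 12017 genes with a mean of at least 5 CPM. All 6 points come from the same libraries, which differ by genotype and makeup, so the correlations are a description. Efemp1 was followed most closely by Tle3 (Pearson's r = 0.997), Chrdl1 and Igfbp4 (both 0.995). Fbln5 was followed by Sod3 (0.997), Uap1 (0.997) and Il6st (0.996), and Efemp2 by Bmp1 (0.999), Man1a and Rian (both 0.998). For Fbln1 they were Akap13 (1.000), Adamtsl1 (0.996) and Jade2 (0.995), and for Fbln2 they were C1s1 (0.997), Atp11a (0.997) and Rassf8 (0.996). Fbln7 was followed by Ddx31 (0.994), Mpv17 (0.986) and Bcor (0.984), and Hmcn1 by Aldh16a1 (0.995), Mindy1 (0.991) and Gem (0.991). The number of genes at r of 0.9 or above was 704 for Efemp1, 614 for Efemp2, 525 for Fbln5, 380 for Fbln1, 337 for Fbln2, 137 for Hmcn1 and 87 for Fbln7.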

How the data were processed

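RNA from dorsal skin of 3 TSK and 3 WT mice was sequenced by the authors as single-end reads of 50 bases after depletion of ribosomal RNA, aligned with STAR to mm10 and quantified in Partek Flow (11.0 in the submitters' processing notes). The authors deposited a table of estimated counts per gene (43.3% to 45.4% of non-zero values whole within 0.001) and a table of CPM scaled to library totals. The estimated counts were rounded to whole numbers before the count tests. Every column of values belonged to a labelled mouse.

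Differences were tested with edgeR 4.0.16 in R 4.3.3 (quasi-likelihood, TMM, filterByExpr, Benjamini-Hochberg over 19971 genes), without covariates, after tests on simulated data. DESeq2 1.42.0, limma 3.58.1 (voom, and log2 of deposited CPM with a pseudocount of 1 or 0.1), other scalings and filters, a replicate block and leaving out each mouse were alternatives. DESeq2 adjusted p-values were available for 21722 genes. A transcript with the longest coding sequence as length was added after seeing the data. The members and lists were chosen with earlier results of these data known. Genes were named by rule: the members, Fbn1, Hmcn2, up to 6 list genes past 0.05 by size of change, and the 3 genes most like each member. Loxl1, Lox, Tgm2, Duox1 and Stard9 fall outside the rule and were named after their values were seen. Mus81, Gm20631 and Gm9913 were named for their overlap. Lengths and coordinates came from GENCODE M21 and promoters from RefSeq (GRCm38.p6), with all 7 members matched. In the promoters the letters of a SMAD element (CAGACA, in 21% of all promoters), a TEAD site (GGAATG, 14.7%), an E box (CANNTG, 72.3%) and a CCAAT box (CCAAT, 37.4%) were also searched on both strands. The authors' single-cell libraries were not analysed here.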

Additional observations from a re-analysis of the deposited data

How the results depend on the processing

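The count of fibulins past 0.05 was 3. It was 5 with library size only, with DESeq2, with limma on deposited CPM at either pseudocount, with no low-count filter and with the replicate block (where 3.33% of all genes were called as higher), and the added members were always Fbln1 and Fbln2. It stayed at 3 with DESeq2's size factors in edgeR (2.94% of all genes higher), with voom (2.17%), with a minimum of 1 CPM in 3 libraries (3.1%), and without muscle and the 20 most abundant genes (2.75%). Leaving out a mouse gave 1 to 3, where 0.218% (without WT 3) to 3.47% (without WT 1) of all genes were called as higher, with Efemp1 alone left without WT 3, TSK 2 or TSK 3. The count past the study's thresholds was 1, where 0.255% of all genes were called as higher. It was 2 with library size only (1.45% of all genes), a pseudocount of 0.1 (1.57%), no filter (0.847%) or the replicate block (0.421%), 3 with DESeq2 (1.42%) or a pseudocount of 1 (1.35%), and 0 to 1 on leaving out a mouse (0.00484% without WT 3 to 0.205% without TSK 1). The replicate numbers share no stated source, and correlations of same-numbered deviations were 0.0112, 0.167 and -0.0938, so the block is not read as a pairing.

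The log2 fold change of Fbln7 turned positive with library size only (0.32), voom (0.23), deposited CPM (0.38 and 0.47) and the replicate block (0.14), and ranged from -0.39 to 0.37 on leaving out a mouse. Relative to fibroblast markers, leaving out a mouse gave -0.0078 to 0.22 for Fbln2, -0.12 to 0.069 for Efemp2 (0.19 without collagens), 0.086 to 0.53 for Fbln1, 0.27 to 0.63 for Fbln5, -0.80 to -0.061 for Hmcn1, -1.14 to -0.49 for Fbln7 and 1.06 to 1.54 for Efemp1. Efemp1 kept its direction and passed 0.05 in all 16 alternatives, Fbln5 passed in 13 and Efemp2 in 12, with the direction kept. The cause of these shifts was not tested.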
